A study of Rattus norvegicus with 6 samples.

Results

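Proteoglycans are core proteins that carry glycosaminoglycan chains, and 9 of their genes are described here out of 19825 genes in the deposited count table. They were chosen by symbol as the matrix proteoglycans Bgn, Dcn, Lum and Vcan, the syndecans Sdc1, Sdc2, Sdc3 and Sdc4, and the glypican Gpc1, and all 9 were found. RNA sequencing had been done on H9C2, a myoblast line derived from the embryonic heart of the rat, for which the labels use the word cardiomyocytes. In 3 libraries (siPUM2 1, 2 and 3) Pumilio 2 (PUM2), a protein known to recognise short elements near the 3' end of messages and to repress them, had been reduced by transfected small interfering RNA. In 3 control libraries (NC 1, 2 and 3) the labels give transfection of an empty vector, and no non-targeting small interfering RNA is mentioned. All 6 libraries come from the same cell line, and the labels give no time after transfection. By label the groups also differ in the kind of nucleic acid transfected, so that its effect and that of lower Pum2 cannot be told apart. The series names genes tied to myocardial fibrosis as its interest.

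Proteoglycans fill and organise the extracellular matrix and hold growth factors at the cell surface. Biglycan, decorin and lumican are small leucine-rich proteins that bind collagen fibrils, and versican is a large proteoglycan that binds hyaluronan. Syndecans span the cell membrane and glypicans are held on it by a lipid anchor, and both mostly carry heparan sulfate and act as co-receptors for growth factors. Matrix proteoglycans of this kind are known to build up in the scarred heart.

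The libraries held between 27704702 (siPUM2 2) and 30579237 (NC 3) counts, so that 1 count was worth 0.0327 to 0.0361 CPM (counts scaled to the library total). Pum2 was measured at 127, 125 and 120 CPM in siPUM2 1, 2 and 3, against 223, 228 and 225 CPM in NC 1, 2 and 3, which left 55.1% of the NC mean (log2 fold change -0.86 ± 0.0279, SE). Of 12985 genes tested with edgeR's quasi-likelihood test, 3692 (28.4%) passed a Benjamini-Hochberg adjusted p of 0.05. Whether the 3 libraries of a group were grown as separate cultures is not stated, and p-values here reflect the spread among these samples alone, which may be technical. Of 9 skeletal myoblast markers 6 were matched, and their summed FPKM (fragments scaled to gene length and library depth, which allows levels of different genes to be compared) was 113 to 122 in siPUM2 and 113 to 116 in NC. Within it Myog, a factor of myoblast differentiation, was at 5.36 to 5.92 in siPUM2 and 9.74 to 14.9 FPKM in NC, and Cdh15, a cadherin of myoblasts, at 59.5 to 63.1 in siPUM2 and 52.5 to 54.4 FPKM in NC. Des was at 12.6 to 13.0 in siPUM2 and 10.8 to 12.4 FPKM in NC, and Myod1 at 35.1 to 39.9 in siPUM2 and 35.7 to 37.9 FPKM in NC. Of 11 cardiomyocyte markers 8 were matched, 7 of them with FPKM values, whose sum was 289 to 323 in siPUM2 and 187 to 222 FPKM in NC. Most of it was Tnnt2, cardiac troponin T, at 273 to 309 in siPUM2 and 171 to 206 FPKM in NC. Myh6, the main myosin of the adult rat heart, stood at 0.03 to 0.10 in siPUM2 and 0.06 to 0.11 FPKM in NC, and Tnni3, cardiac troponin I, at 0 to 0.13 in siPUM2 and 0 to 0.16 FPKM in NC. The cardiac transcription factors Nkx2-5 (8.84 to 10.21 in siPUM2, 10.22 to 11.46 FPKM in NC) and Gata4 (2.14 to 2.73 in siPUM2, 2.54 to 2.65 FPKM in NC) and the natriuretic peptide gene Nppb (2.60 to 3.53 in siPUM2, 1.83 to 2.95 FPKM in NC) were detected. Of 10 fibroblast markers 9 were matched, with a sum of 3400 to 3475 in siPUM2 and 3451 to 3454 FPKM in NC, most of it from collagen genes. Within it Thy1 was at 348 to 357 in siPUM2 and 283 to 288 FPKM in NC, Postn at 10.3 to 11.4 in siPUM2 and 16.5 to 16.8 FPKM in NC, and Pdgfra at 0 to 0.02 in siPUM2 and 0 in every NC library. The collagen genes in it moved in both directions. Col1a1 was at 1184 to 1235 in siPUM2 and 1271 to 1296 FPKM in NC, and Col3a1 at 295 to 299 in siPUM2 and 318 to 324 FPKM in NC. Col1a2 was at 1555 to 1580 in siPUM2 and 1535 to 1552 FPKM in NC. Of these genes, Myog, Col1a1, Col3a1, Postn and, by a narrow margin, Nkx2-5 were lower in every siPUM2 library than in any NC library. Cdh15, Des, Tnnt2, Col1a2 and Thy1 were higher in every siPUM2 library than in any NC library. Sums for endothelium (6 of 7 matched) were 0.25 to 0.29 in siPUM2 and 0.23 to 0.26 FPKM in NC, and for Schwann or neural cells (6 of 6) 0.65 to 0.79 in siPUM2 and 0.51 to 0.58 FPKM in NC. The macrophage sum (4 of 7 matched) was 19.3 to 20.4 in siPUM2 and 18.6 to 19.0 FPKM in NC, nearly all from Cd14. The part of these marker differences in the results below was not tested. In bulk samples, fewer cells of a type and less RNA per cell cannot be told apart.

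The RefSeq promoter table (build GRCr8, whereas the counts were made on mRatBN7.2) matched 5 of the 9 genes, Lum, Vcan, Sdc1, Sdc3 and Sdc4. The 120 bases before the transcription start are shown for the abundant Sdc1 and Sdc4, for Sdc3, which was near 0, and for Vcan, which fell. Capitals mark TATAA, the core of the TATA box that positions transcription initiation, and GGGCGG, the GC box that Sp1-type factors are known to bind, each searched on both strands.
Sdc1, chr6:37281921-37282040, plus strand: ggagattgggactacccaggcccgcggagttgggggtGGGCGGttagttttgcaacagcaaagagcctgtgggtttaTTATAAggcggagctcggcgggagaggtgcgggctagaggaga
Sdc4, chr3:173592924-173593043, minus strand: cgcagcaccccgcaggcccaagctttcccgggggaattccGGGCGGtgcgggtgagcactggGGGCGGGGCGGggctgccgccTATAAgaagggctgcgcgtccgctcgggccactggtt
Sdc3, chr5:148249672-148249791, plus strand: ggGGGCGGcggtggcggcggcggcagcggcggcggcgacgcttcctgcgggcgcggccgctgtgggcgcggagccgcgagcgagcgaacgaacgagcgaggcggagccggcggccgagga
Vcan, chr2:22595956-22596075, minus strand: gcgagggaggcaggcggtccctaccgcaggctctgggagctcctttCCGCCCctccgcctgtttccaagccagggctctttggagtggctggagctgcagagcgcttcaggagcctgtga

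TATAA began 42 bases before the start of Sdc1, where a match on the other strand overlapped it from 43 bases, and 37 bases before the start of Sdc4. The windows of Sdc3, Vcan and Lum held none, and 12.8% of 33469 promoter windows of this length in the table held one. GGGCGG was found 3 times in Sdc4 (the copies at 58 and 53 bases share a base), once in Sdc1, once in Sdc3 and once in Vcan, there on the strand opposite the gene and so printed as CCGCCC, for which the more upstream of 2 listed starts was used. It was not found in Lum, and 23.7% of all windows held it. These matches describe letters and not binding. Pumilio elements lie in 3' untranslated regions, whose sequence was not used here.

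The 9 genes ranged from among the most abundant messages of these cells to a few counts. By mean FPKM over the 6 libraries the order was Bgn (522), Gpc1 (243), Sdc1 (158), Sdc4 (87.8), Sdc2 (44.1) and Vcan (7.71), and the ranges of neighbours in this order did not overlap. Bgn ranked 165th of 19535 genes in the FPKM table and Vcan 5510th. Dcn, Sdc3 and Lum stood at or under 0.10 FPKM in every library, and their ranges overlapped one another.

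**Figure D1:**
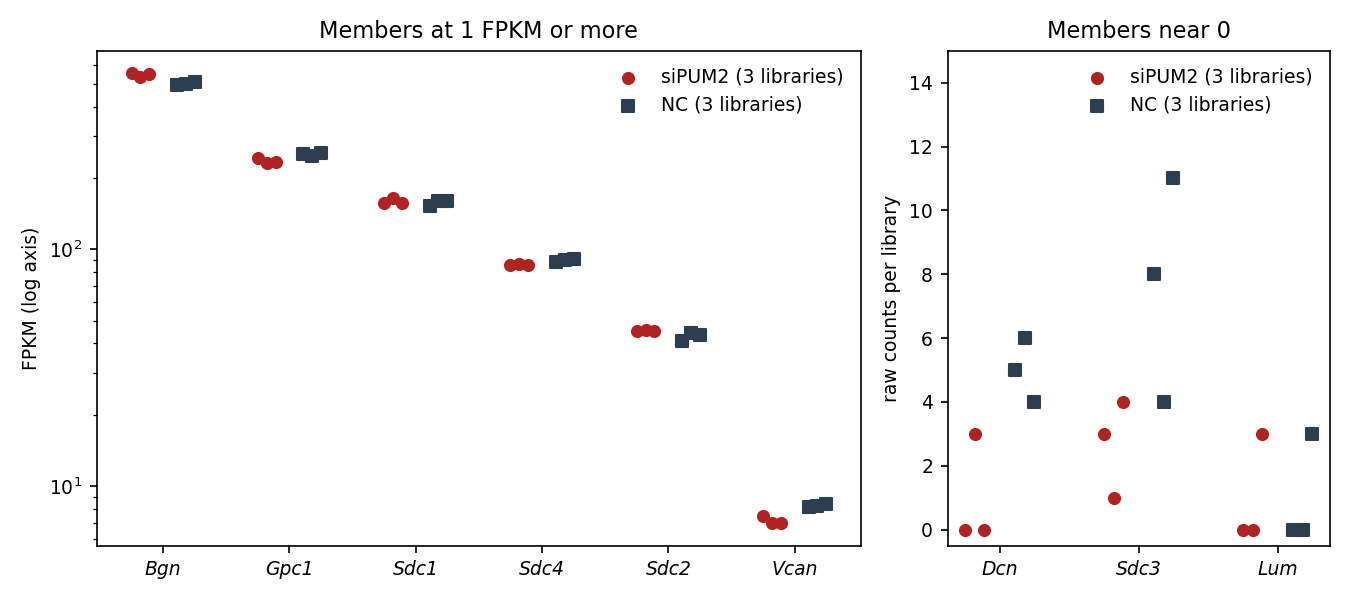
Levels of the 9 genes in each library, as FPKM on a log axis for 6 genes (left) and as raw counts for the 3 genes near 0 (right), with siPUM2 as circles and NC as squares. Bgn stands highest, at 533 to 553 FPKM in siPUM2 and 495 to 508 FPKM in NC, and no library holds more than 11 counts of Dcn, Sdc3 or Lum.

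Of the 9 genes, 6 passed the filter on low counts and were tested, and 4 changed, Bgn and Sdc2 higher and Vcan and Gpc1 lower in siPUM2. Over all genes tested, 28.4% were called, 15.1% higher and 13.3% lower. The median log2 fold change of the 6 genes was -0.02, against 0.00 over all genes. In 5 of the 6, 2 higher and 3 lower, no siPUM2 value lay among the NC values, against 39.9% of all genes tested (20.7% higher and 19.2% lower). All changes were small: the largest, that of Vcan, was 1.15-fold, and the median called gene over the whole table also changed 1.15-fold. The count of 4 was 2 without siPUM2 2 and 3 by DESeq2.

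Biglycan (Bgn), a collagen-binding proteoglycan of the matrix, rose. It was measured at 1517, 1465 and 1510 CPM in siPUM2 1, 2 and 3, against 1358, 1369 and 1389 CPM in NC 1, 2 and 3. Every siPUM2 library stood above every NC library. The mean was 1497 ± 28.2 CPM in siPUM2 and 1372 ± 16.0 CPM in NC (SD, n = 3 each), 9.15% higher, with a log2 fold change of 0.13 ± 0.0243 (SE) and an adjusted p of 0.000203 (edgeR). Bgn alone made up 49.9% to 50.9% of the summed FPKM of the 9 genes in siPUM2 and 47.6% to 47.7% in NC.

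Versican (Vcan), the hyaluronan-binding proteoglycan of provisional matrix, fell. Its level was 104, 97.8 and 97.9 CPM in siPUM2 1, 2 and 3, against 114, 115 and 118 CPM in NC 1, 2 and 3. The groups did not overlap, and siPUM2 1 lay nearest to the NC libraries. The mean was 99.97 ± 3.69 CPM in siPUM2 and 115 ± 1.87 CPM in NC (SD, n = 3 each), 1.15-fold lower, with a log2 fold change of -0.21 ± 0.0305 (SE) and an adjusted p of 5.40e-06 (edgeR). The table counts whole genes, so splice forms of versican, which differ in their number of chains, could not be told apart.

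Decorin (Dcn) and lumican (Lum), which bind collagen fibrils as biglycan does, were hardly detected. Dcn had 0, 3 and 0 counts in siPUM2 1, 2 and 3, against 5, 6 and 4 counts in NC 1, 2 and 3. The groups did not overlap, but the siPUM2 libraries were at or under 3 counts each, a floor of 0.102 to 0.108 CPM. The summed 3 counts in siPUM2 and 15 counts in NC gave a depth-scaled ratio of 0.209 (exact 95% interval 0.0388 to 0.739, counting error only). Dcn did not pass the filter, and without one edgeR gave an adjusted p of 0.158. Lum had 0, 0 and 3 counts in siPUM2, against 0, 0 and 3 counts in NC, too few for a comparison. In the reference order of genes on chromosome 7 (GRCr8) Dcn and Lum are direct neighbours. Beside Dcn lies Btg1, an antiproliferative gene, with 2303 to 2708 raw counts in siPUM2 and 2144 to 2334 raw counts in NC. Not being scaled to depth, these ranges show that Btg1 was detected and do not compare the groups. Kera and Epyc, the next genes beyond Lum, had no match by symbol in the deposited count table.

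Among the syndecans, Sdc2 was called higher and Sdc1 and Sdc4 were not called. Syndecan 2 (Sdc2), known for its role in fibroblast and vascular cell adhesion, was at 110.1, 110.8 and 110.4 CPM in siPUM2 1, 2 and 3, against 99.6, 107 and 106 CPM in NC 1, 2 and 3. The groups did not overlap, and NC 1 lay well under the other NC libraries. The mean was 110.4 ± 0.371 CPM in siPUM2 and 104 ± 4.09 CPM in NC (SD, n = 3 each), 5.96% higher, with a log2 fold change of 0.08 ± 0.0304 (SE) and an adjusted p of 0.0393 (edgeR). The call was the weakest of the 4: it was kept in 6 of 18 alternatives. Without NC 1 the log2 fold change was 0.05 (adjusted p = 0.266), and the adjusted p was 0.0822, 0.109 and 0.111 without siPUM2 1, 2 and 3 (edgeR).

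Syndecan 1 (Sdc1), the most abundant of the family here and a heparan sulfate carrier of epithelia and injured tissue, was at 531, 558 and 537 CPM in siPUM2 1, 2 and 3, against 518, 542 and 542 CPM in NC 1, 2 and 3. The groups overlapped. The log2 fold change was 0.02, with an interval of -0.03 to 0.07 (1.96 SE) and an adjusted p of 0.602 (edgeR), and its sign turned without siPUM2 2 or without NC 1. A p that misses the threshold does not show equal levels.

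Syndecan 4 (Sdc4), which joins integrins at focal adhesions, was at 241, 243 and 241 CPM in siPUM2 1, 2 and 3, against 248, 253 and 254 CPM in NC 1, 2 and 3. All siPUM2 libraries lay under all NC libraries, by a small margin. The log2 fold change of -0.06 ± 0.0251 (SE) had an adjusted p of 0.0760 (edgeR), with 0.0362 to 0.167 over the 18 alternatives. Syndecan 3 (Sdc3), best known from nervous tissue and developing muscle, had 3, 1 and 4 counts in siPUM2, against 8, 4 and 11 counts in NC. These ranges met at 4 counts, and the depth-scaled ratio of the sums, 8 to 23 counts, was 0.364 (exact 95% interval 0.141 to 0.842, counting error only). Sdc3 did not pass the filter, and without one edgeR gave an adjusted p of 0.203.

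The make-up of the syndecan family by FPKM differed between the groups by at most 1.39 percentage points, the lower share of Sdc4 in siPUM2. Sdc1 gave 54.4%, 55.5% and 54.7% of the summed syndecan FPKM in siPUM2 1, 2 and 3, against 54.1%, 54.3% and 54.4% in NC 1, 2 and 3. Sdc2 gave 15.6% ± 0.202 in siPUM2 and 14.8% ± 0.250 in NC, and Sdc4 gave 29.6% ± 0.341 in siPUM2 and 30.9% ± 0.370 in NC (SD, n = 3 each). The groups did not overlap for Sdc1, Sdc2 or Sdc4, for Sdc1 by a narrow margin (54.42% in siPUM2 1, 54.36% in NC 3). Each of these 3 differences had a two-sided exact permutation p of 0.10, the smallest that 3 against 3 libraries allow. Adjusted over the 4 shares it was 0.133. The shares of a library add up to the whole, so these 3 differences are not separate results. Without siPUM2 2 the difference for Sdc1 was 0.264 rather than 0.570 percentage points, and with Gpc1 added to the sum the differences were 1.16 for Sdc1 and -0.286 for Sdc4. Sdc3 made up 0.00692% ± 0.00352 in siPUM2 and 0.0161% ± 0.00860 in NC (SD, n = 3 each; exact permutation p = 0.30).

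Glypican 1 (Gpc1), a lipid-anchored heparan sulfate proteoglycan that binds fibroblast growth factors, fell slightly. It was at 960, 913 and 925 CPM in siPUM2 1, 2 and 3, against 991, 971 and 1003 CPM in NC 1, 2 and 3. The groups did not overlap, and siPUM2 1 lay close under the lowest NC library. The mean was 933 ± 24.7 CPM in siPUM2 and 988 ± 16.1 CPM in NC (SD, n = 3 each), with a log2 fold change of -0.08 ± 0.0253 (SE) and an adjusted p of 0.0132 (edgeR). The call was lost without siPUM2 2 (adjusted p = 0.0945) and without NC 3 (adjusted p = 0.0522).

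**Figure D2:**
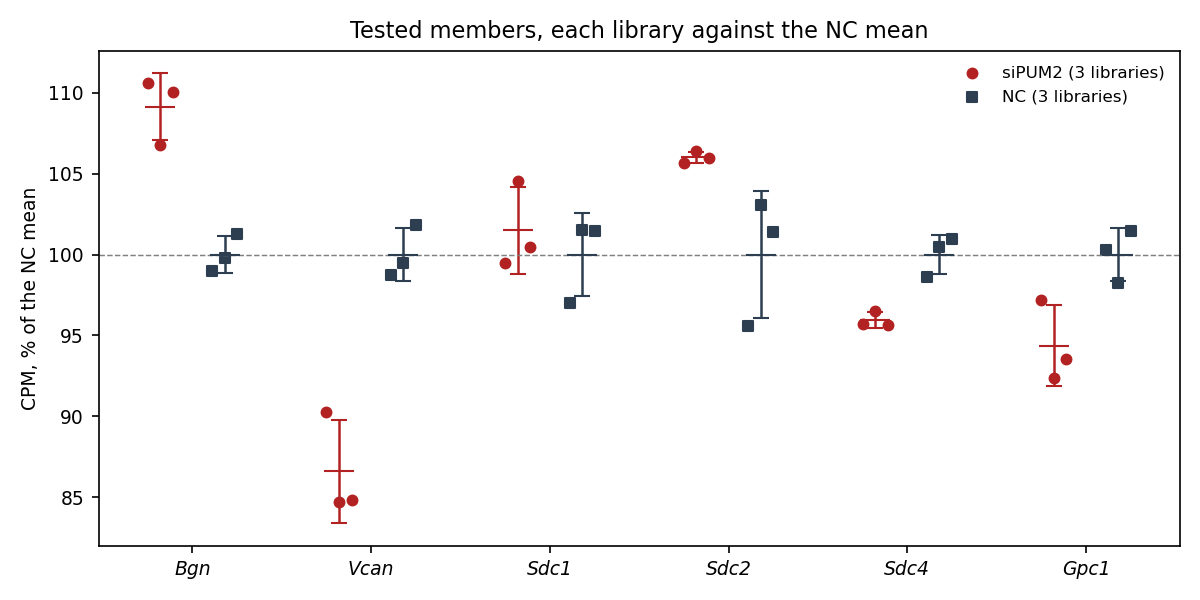
CPM of the 6 tested genes in each library as a percentage of the gene's NC mean (dashed line at 100), with siPUM2 as circles and NC as squares and with mean ± SD. The vertical axis does not start at 0. Bgn stands above and Vcan below the NC libraries in all 3 siPUM2 libraries, and Sdc1 overlaps.

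Genes around these 9 were read from 8 lists of the chain enzymes, other proteoglycans and partners. Of 135 listed genes 115 were matched and 88 tested, of which 19 rose and 12 fell (35.2%, against 28.4% over all genes tested). The following paragraphs give up to 4 genes per list with the lowest p, and any further gene was chosen after its values were seen.

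Other proteoglycans moved in both directions. Of 11 tested cell surface and basement membrane proteoglycans 3 rose, 1 fell and 7 were not called, with a median log2 fold change of 0.07. Gpc4, a glypican related to Gpc1, rose 1.17-fold, at 242, 239 and 244 CPM in siPUM2 1, 2 and 3, against 211, 201 and 209 CPM in NC 1, 2 and 3 (adjusted p = 1.71e-07, edgeR). Gpc1 and Gpc4 were thus called in opposite directions, though the difference between them was not tested. Nrp1, a co-receptor for VEGF and semaphorins, rose 1.16-fold (26.8 ± 0.414 CPM in siPUM2, 23.0 ± 0.808 CPM in NC, SD, n = 3 each). Tgfbr3 (betaglycan), a co-receptor for TGF-beta, fell 1.22-fold (27.98 ± 2.18 CPM in siPUM2, 34.1 ± 0.250 CPM in NC). Hspg2 (perlecan), a basement membrane proteoglycan, had a log2 fold change of 0.08 (adjusted p = 0.0481, edgeR), and the call was lost in 5 of the 6 fits that left out 1 library, with adjusted p of 0.0941, 0.0825 and 0.103 without siPUM2 1, 2 and 3 and of 0.392 and 0.0972 without NC 1 and 2. With each library's trend with gene length removed it was at 0.01 (adjusted p = 0.765).

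Of 14 listed small leucine-rich relatives 10 were matched and only 3 passed the filter. Of these 3 tested genes 0 were called by edgeR and 0 by DESeq2, with 1 at an unadjusted p under 0.05. Podnl1 (log2 fold change 0.12), Nyx (0.67, under 1 CPM) and Tsku (-0.01) were these 3 genes. Without NC 3, Podnl1 had 0.19 (adjusted p = 0.0169, edgeR). The count called from this list was 0 in 13 of 19 alternatives and 1 in the others.

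Of 11 tested genes of hyaluronan, the polymer that versican binds, 1 rose, 2 fell and 8 were not called. That share of 27.3% called was near the 28.4% over all genes tested. Tnfaip6, which transfers protein chains onto hyaluronan, rose 1.49-fold, at 16.7, 17.7 and 19.4 CPM in siPUM2 1, 2 and 3, against 12.7, 12.8 and 10.6 CPM in NC 1, 2 and 3 (adjusted p = 1.77e-06, edgeR). The hyaluronan receptor Cd44 fell by 0.08 on the log2 scale (399 ± 4.53 CPM in siPUM2, 422.5 ± 7.999 CPM in NC, SD, n = 3 each), a call lost without NC 3 (adjusted p = 0.0609). Hmmr, a hyaluronan-binding protein of the mitotic spindle, fell by 0.18 on the log2 scale, lost without siPUM2 1 (adjusted p = 0.102) and without NC 3 (0.164). Cemip, a hyaluronan-degrading factor at 0.517 CPM in siPUM2 and 0.241 CPM in NC, had a log2 fold change of 1.11 and was not called (adjusted p = 0.0737). Without NC 1 it was at 1.78 (adjusted p = 0.0204, edgeR).

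**Figure D3:**
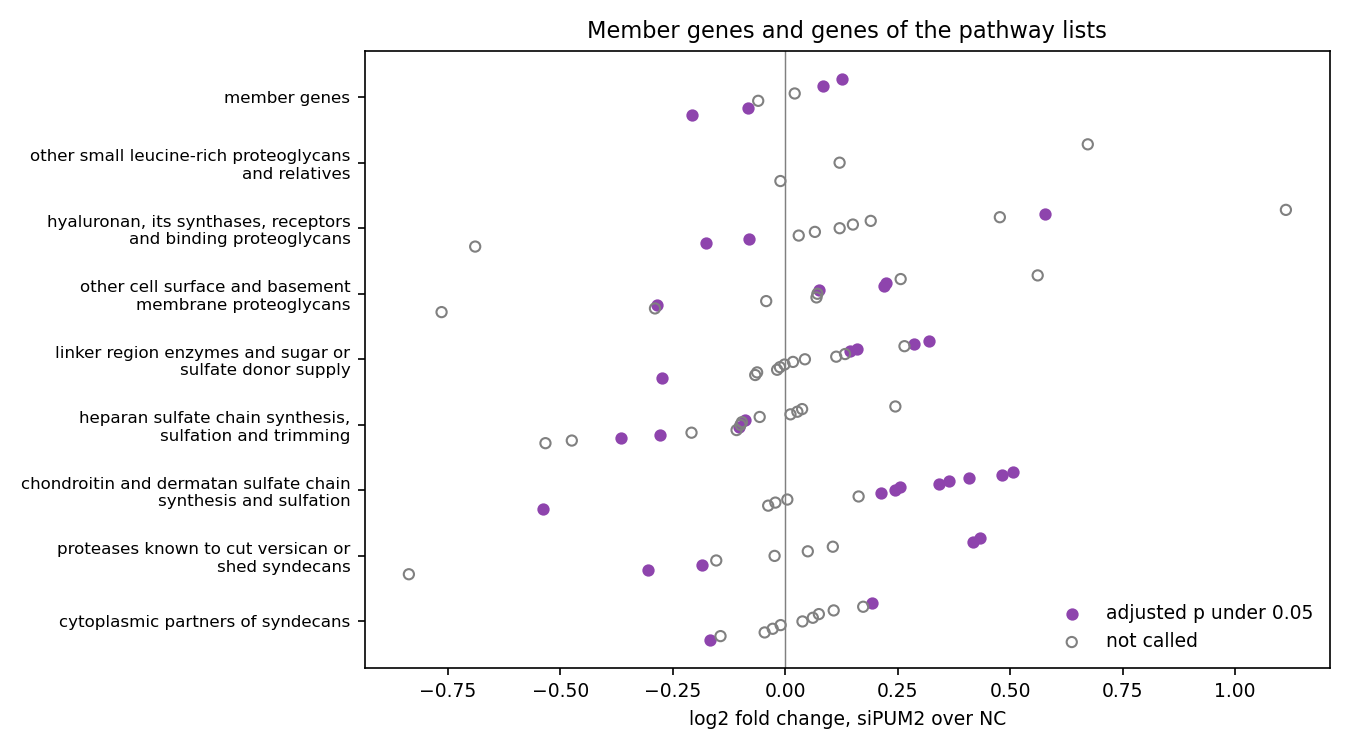
Log2 fold changes (siPUM2 over NC) of the tested member genes and of the tested genes in each of the 8 lists, 1 point per gene, filled where the adjusted p was under 0.05. Filled points of the chondroitin and dermatan sulfate list lie to the right of 0 for 8 genes and to the left for 1, and those of the heparan sulfate list lie to the left for 4.

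Among enzymes that build chondroitin and dermatan sulfate, the chains that versican, biglycan and decorin carry, more were called higher than lower in siPUM2. The dermatan sulfate enzymes Dse and Chst14 were not among those called higher. Of 13 tested genes 8 rose, 1 fell and 4 were not called (69.2% called, against 28.4% over all genes, and 15.1% of all genes were called higher). The median log2 fold change was 0.24, against 0.00 over all genes. Between 7 and 8 of them rose and 1 or 2 fell under every alternative tried.

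Chpf, which with its partners polymerises the chain, rose 1.33-fold, at 408, 375 and 404 CPM in siPUM2 1, 2 and 3, against 294, 298 and 302 CPM in NC 1, 2 and 3 (adjusted p = 9.54e-12, edgeR). Chst15, a sulfotransferase that makes highly sulfated chondroitin, rose 1.29-fold, at 104, 103 and 105 CPM in siPUM2, against 79.9, 82.6 and 80.0 CPM in NC. Chst3, a 6-O-sulfotransferase, rose 1.42-fold, at 54.0, 51.9 and 49.9 CPM in siPUM2, against 32.8, 38.8 and 37.8 CPM in NC. In all 3 genes the lowest siPUM2 library stood above the highest NC library. Others that rose were Csgalnact1 (1.40-fold) and Csgalnact2 (1.19-fold), which add the first sugars of the chain, and Chpf2 (1.18-fold) and Chst12 (1.27-fold).

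Ust, a 2-O-sulfotransferase, was the weakest of the 8 (log2 fold change 0.21, adjusted p = 0.0423). Its call was lost in each of the 6 fits that left out 1 library, with adjusted p of 0.204, 0.0547 and 0.0579 without siPUM2 1, 2 and 3 and of 0.129, 0.0971 and 0.0590 without NC 1, 2 and 3 (edgeR). The exception in direction was Chst14, the 4-O-sulfotransferase of dermatan sulfate, which fell 1.45-fold, at 32.9, 33.8 and 34.1 CPM in siPUM2 1, 2 and 3, against 48.2, 46.5 and 51.7 CPM in NC 1, 2 and 3 (adjusted p = 1.09e-08, edgeR). The epimerase Dse, which turns chondroitin into dermatan sulfate, was not called (log2 fold change -0.02). Also not called were Dsel (log2 fold change 0.16, adjusted p = 0.128, edgeR), Chsy1 (0.005) and Chst11 (-0.04).

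Enzymes of heparan sulfate, the chain of syndecans and glypicans, were called at a share near that over all genes. Those called were lower. Of 15 tested genes 4 fell and 11 were not called (26.7% called, against 28.4% over all genes in either direction and 13.3% lower), with a median log2 fold change of -0.10. Higher calls numbered 0 by edgeR, 0 at an unadjusted p under 0.05 and 0 by DESeq2. Over all genes tested, 15.1% were called higher by edgeR. The count of 4 was 2 without siPUM2 2.

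Glce, the epimerase that makes heparan sulfate flexible, fell 1.29-fold, at 16.4, 16.9 and 16.3 CPM in siPUM2 1, 2 and 3, against 22.4, 20.1 and 21.5 CPM in NC 1, 2 and 3 (adjusted p = 4.90e-05, edgeR). Hs6st1, a 6-O-sulfotransferase, fell 1.21-fold (21.3 ± 2.15 CPM in siPUM2, 25.8 ± 0.947 CPM in NC, SD, n = 3 each). Extl3, which starts the chain, fell by 0.09 on the log2 scale and lost its call without siPUM2 2 (adjusted p = 0.0805). Ext1, a chain polymerase, fell by 0.10 (adjusted p = 0.0327) and lost its call in each fit that left out 1 library, with adjusted p of 0.0931, 0.0742 and 0.0725 without siPUM2 1, 2 and 3 and of 0.117, 0.0671 and 0.102 without NC 1, 2 and 3. Sulf1, an endosulfatase that trims these chains at the cell surface, was not called (log2 fold change 0.03). Whether the lists of the 2 chain types differ from each other was not tested.

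**Figure D4:**
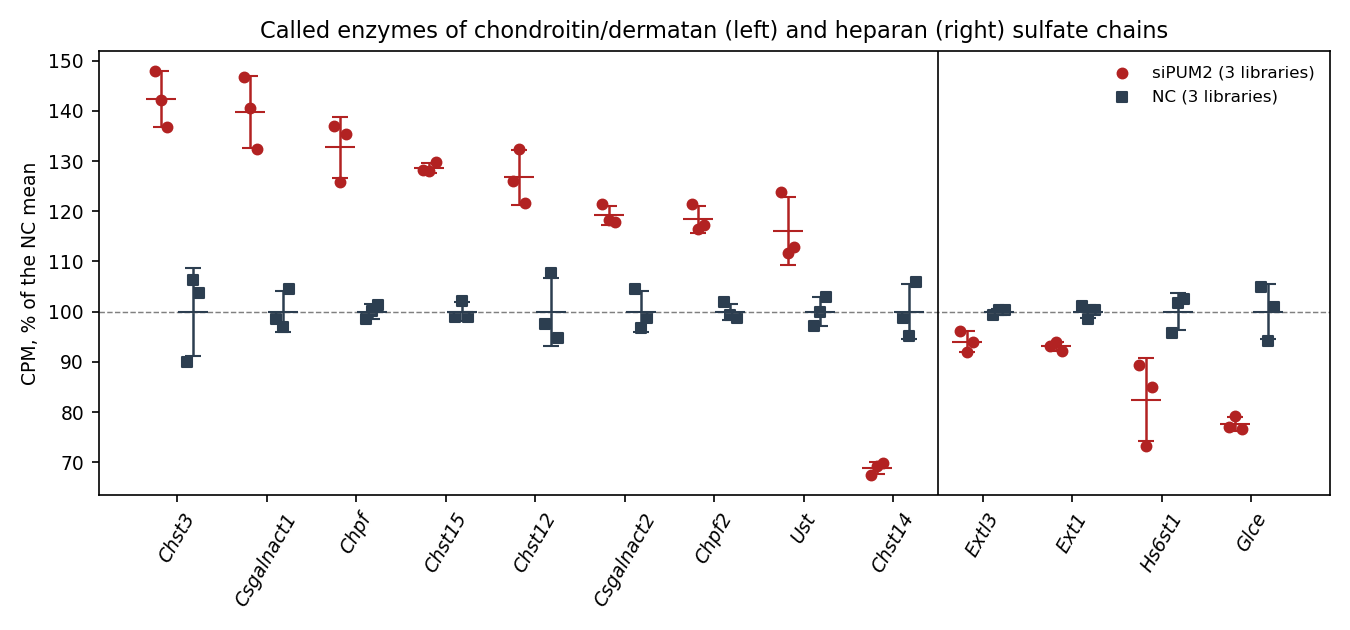
CPM of the called enzymes in each library as a percentage of the gene's NC mean (dashed line at 100), with chondroitin and dermatan sulfate enzymes left of the vertical line and heparan sulfate enzymes right of it, siPUM2 as circles, NC as squares, with mean ± SD. The vertical axis does not start at 0. Of the left group 8 genes stand above and Chst14 below the NC libraries in all 3 siPUM2 libraries, and the 4 genes of the right group stand below.

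Genes that build the linker between core protein and chain, or supply its sugars and sulfate, were tested for 15. Of these 4 rose, 1 fell and 10 were not called (33.3% called, against 28.4% over all genes tested). The linker enzymes B3gat3 (231 ± 6.14 CPM in siPUM2, 207 ± 7.07 CPM in NC, SD, n = 3 each) and B4galt7 (28.1 ± 1.003 CPM in siPUM2, 23.1 ± 1.47 CPM in NC) rose 1.12-fold and 1.22-fold. Papss2, which makes the sulfate donor PAPS, rose 1.25-fold. Its relative Papss1 rose by a log2 fold change of 0.14, a call lost without siPUM2 1 (adjusted p = 0.0815), NC 1 (0.0954) and NC 3 (0.105). Uxs1, which makes the UDP-xylose with which every linker begins, fell 1.21-fold, at 135, 138 and 142 CPM in siPUM2 1, 2 and 3, against 169, 162 and 171 CPM in NC 1, 2 and 3 (adjusted p = 1.73e-08, edgeR). No library of either group crossed into the other for Uxs1.

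Of 9 tested proteases known to cut versican or shed syndecans, 2 rose, 2 fell and 5 were not called. Thus 44.4% were called, against 28.4% over all genes tested. Adamts1, a secreted versican-cutting protease, rose 1.34-fold, at 504, 514 and 498 CPM in siPUM2 1, 2 and 3, against 392, 365 and 378 CPM in NC 1, 2 and 3 (adjusted p = 1.31e-12, edgeR). Adamts9, another protease that cuts versican, fell 1.24-fold (12.7 ± 0.933 CPM in siPUM2, 15.7 ± 0.366 CPM in NC, SD, n = 3 each). Mmp14, a membrane-bound metalloproteinase that can shed syndecan 1, fell 1.14-fold (162 ± 3.19 CPM in siPUM2, 184 ± 2.97 CPM in NC). Adamts4 was called at a low level (3.78 CPM in siPUM2, 2.79 CPM in NC), and the call was lost without siPUM2 1 (adjusted p = 0.105), siPUM2 2 (0.175), NC 1 (0.174) and NC 2 (0.114).

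Of 11 tested cytoplasmic partners of syndecans 1 rose, 1 fell and 9 were not called (18.2% called, against 28.4% over all genes tested). Arf6, a small GTPase of membrane recycling, fell 1.12-fold (91.5 ± 1.41 CPM in siPUM2, 103 ± 2.90 CPM in NC, SD, n = 3 each; adjusted p = 0.000102, edgeR). Cask, a scaffold that binds the syndecan tail, had a log2 fold change of 0.19 (adjusted p = 0.0232), a call lost without siPUM2 1 (0.119), siPUM2 2 (0.0912) and NC 1 (0.0927). Gipc1 (log2 fold change 0.06) and Dnm2 (0.07) were not called.

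The genes closest to Bgn and Vcan in pattern were sought among 8717 tested genes of at least 10 CPM, by the root-mean-square difference of the 6 mean-centred log2 CPM values. Nearest to Bgn were Zfp385a (0.0110), Bcl2l1 (0.0114) and Itpr3 (0.0123). Nearest to Vcan were Mthfd1l (0.0172), Fbxo4 (0.0191) and Pigt (0.0192). Of these genes Zfp385a (adjusted p = 0.0716, edgeR), Itpr3 (0.0522) and Fbxo4 (0.0793) were not called. Over only 6 libraries, such close matches describe these libraries alone.

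**Figure D5:**
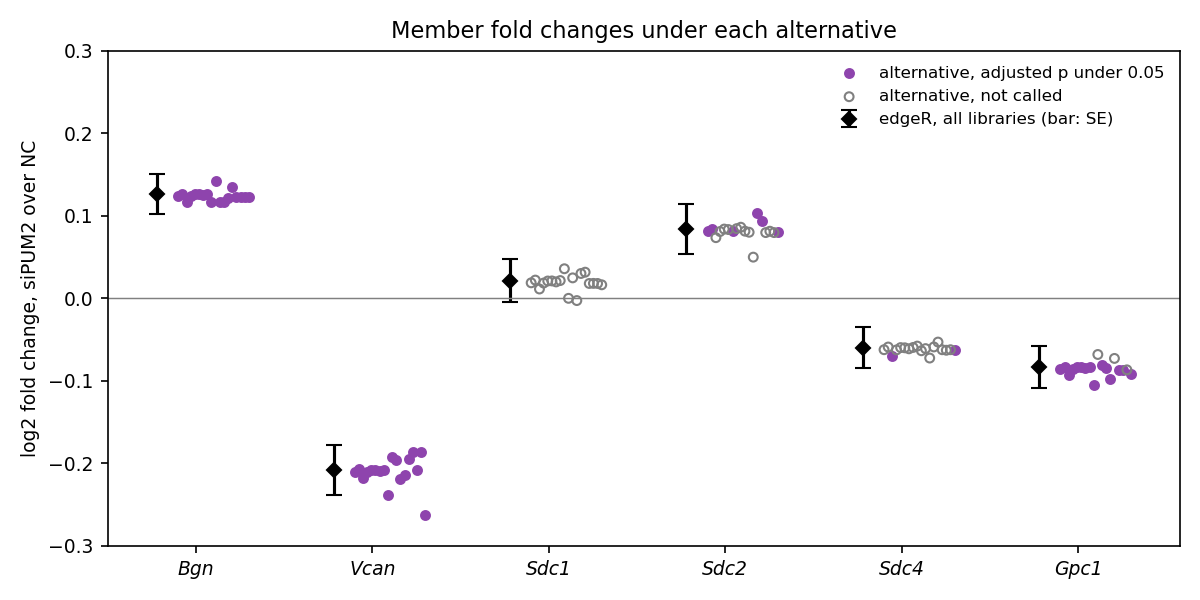
Log2 fold changes (siPUM2 over NC) of the 6 tested genes by edgeR on all libraries (diamonds, bars are SE) and under each of 18 alternatives, filled where the adjusted p was under 0.05. All points of Bgn and Vcan are filled, 15 of 18 for Gpc1, 6 for Sdc2, 2 for Sdc4 and 0 for Sdc1.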

How the data were processed

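Per the labels' protocols, polyadenylated RNA was made into strand-specific libraries and read from both ends. HISAT2, DESeq2 and the build mRatBN7.2 appear in the submitters' processing notes. Tool versions, the gene annotation and the counter are not stated there. The authors deposited counts per gene as whole numbers without normalization, and FPKM values rounded to 2 decimals, with 1 column per library, per the file headers. Rows without a gene name numbered 0.

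The counts were tested with edgeR 4.0.16 (quasi-likelihood, R 4.3.3), with TMM factors of 0.995 to 1.003, filterByExpr (12985 genes kept, 6840 removed, with 0.0465% of counts) and no covariate beside the group. The Benjamini-Hochberg adjustment ran over every gene tested. Fold changes are siPUM2 over NC, and SE comes from the F statistic.

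The 9 genes, the lists and the naming rule (Pum2, the 9 genes, the 4 lowest p of each list, the nearest patterns) were chosen with earlier results of these data known. Of 135 list genes, 114 matched by symbol and 1 by an older symbol (GRCr8 names). Alternatives were other scaling, DESeq2 1.42.0, limma 3.58.1 on voom values or log2(FPKM + 1 or 0.1), other filters, a stricter threshold, a gene length correction, the replicate number as a block and each library left out. No library was a copy of another (pairs within a group had a chi-square of 2.04 to 3.65 per degree of freedom). Intervals on counts cover counting error only.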

Additional observations from a re-analysis of the deposited data

How the results depend on the processing

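The calls of Bgn and Vcan were kept in all 18 alternatives, with log2 fold changes of 0.12 to 0.14 for Bgn and -0.26 to -0.19 for Vcan, and that of Pum2 was kept as well (-0.89 to -0.83). The count of genes called was 2246 on log2(FPKM + 1) without a filter and 3004 to 3538 with 1 library left out. The count of members called was 2 to 4 with 1 library left out, 2 on log2(FPKM + 1) without a filter and 2 at an adjusted p under 0.01. Sdc2 lost its call with upper-quartile factors (log2 fold change 0.0734), DESeq2 (0.0809), limma voom (0.0838), no filter (0.0832), log2(FPKM + 1) with and without a filter (0.0796 each) and log2(FPKM + 0.1) (0.0812), and ranged from 0.0498 to 0.103 with 1 library left out. Sdc4 gained a call with upper-quartile factors (-0.0699) and with the gene length trend removed (-0.0632). Gpc1 lost its call on log2(FPKM + 1) without a filter (-0.0868) and ranged from -0.105 to -0.0682 with 1 library left out. Sdc1 ranged from -0.00286 to 0.0357 and Tsku from -0.0313 to 0.00404 with 1 library left out, both across 0. The cause of these losses was not tested. Of the other scalings, upper-quartile factors moved the median log2 fold change of all genes most, by -0.0102. The gene length correction moved it by -0.0131.

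Same-numbered libraries had correlations of deviations from the group means of 0.0238, 0.0258 and 0.00373, against -0.0471 to 0.0217 for libraries of different number. Values this low do not show that replicate numbers pair the libraries. They cannot exclude it, since counting error in low genes weakens any shared deviation. With the replicate number as a block 3732 genes and 3 members were called, and Sdc2 was at 0.0843 (adjusted p = 0.0542, edgeR). Depth limits Dcn, Lum and Sdc3, which had at most 11 counts in a library.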
